A study of Rattus norvegicus with 8 samples.

Results

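Messenger RNA of 10 CC chemokine ligands was examined in rat abdominal aorta after iron chloride (FeCl3) or saline. The genes were picked by symbol from the 18090 genes of the deposited table, and all 10 were present: Ccl2, Ccl7, Ccl6, Ccl3, Ccl4, Ccl5, Ccl20, Ccl11, Ccl19 and Ccl21. Their gene identifiers matched RefSeq for each symbol. The aortas came from wild-type rats. In 4 of them a filter paper soaked in 10% FeCl3 lay around the vessel for 5 min, and in 4 controls the paper held 0.9% saline for the same time. FeCl3 is an oxidising salt used to injure the vessel wall and provoke a thrombus, and the design asks how a vessel with such a thrombus differs from a saline control. Samples within a condition are described as biologically independent. Strain, sex, age and the delay to harvest are not given in the sources used here. Levels are in FPKM, fragment counts scaled by gene length and by library total, so comparisons between genes depend on the lengths used.

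CC chemokines are small secreted proteins, named for a pair of adjacent cysteines, that bind G protein-coupled receptors on white blood cells and guide their migration. Inflammatory members such as Ccl2 are made on demand by macrophages, endothelium and smooth muscle, often through the transcription factor NF-kB, and recruit monocytes, lymphocytes or eosinophils to a damaged wall. Homeostatic members such as Ccl19 and Ccl21 are made steadily by lymphatic endothelium and lymphoid stroma and draw cells that carry the receptor CCR7. Ccl2 and its receptor CCR2 are well studied in arterial inflammation, and Ccl5 is also stored in platelet granules.

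The family sits in clusters. By the order of protein-coding genes in RefSeq (GRCr8), Ccl2, Ccl7 and Ccl11 are consecutive on chromosome 10, Ccl6, Ccl3 and Ccl4 are consecutive in another part of that chromosome with Ccl5 separated from them by Ccl9, Ccl19 and Ccl21 lie on chromosome 5 with 1 gene between them, and Ccl20 lies alone on chromosome 9. RefSeq promoter entries were matched for 5 of the 10, Ccl7, Ccl6, Ccl20, Ccl19 and Ccl21. The 250 bases upstream of the annotated start are shown for 4 of them, all but Ccl20. Shown are Ccl7 and Ccl6, monocyte attractants higher on average after FeCl3, and Ccl19 and Ccl21. The last 2 are neighbouring ligands of the same receptor whose levels moved differently across the libraries. Capitals mark the letters TATAAA, an NF-kB-like pattern (3 G, 5 bases of any kind, then 2 C) and the AP-1-like pattern TGANTCA, each searched on both strands. The windows are, on GRCr8, chr10:67513845-67514094 on the plus strand for Ccl7, and on the minus strand chr10:68883367-68883616 for Ccl6, chr5:61761165-61761414 for Ccl19 and chr5:61777516-61777765 for Ccl21.
Ccl7: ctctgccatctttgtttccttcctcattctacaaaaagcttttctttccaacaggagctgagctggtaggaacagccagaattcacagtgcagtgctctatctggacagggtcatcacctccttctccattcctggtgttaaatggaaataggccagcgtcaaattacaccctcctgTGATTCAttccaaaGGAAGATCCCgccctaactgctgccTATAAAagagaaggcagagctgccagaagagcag
Ccl6: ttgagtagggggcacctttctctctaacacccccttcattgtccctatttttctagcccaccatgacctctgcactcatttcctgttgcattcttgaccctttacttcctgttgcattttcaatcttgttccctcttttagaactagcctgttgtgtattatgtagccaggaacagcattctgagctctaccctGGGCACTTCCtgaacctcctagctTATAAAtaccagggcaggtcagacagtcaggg
Ccl19: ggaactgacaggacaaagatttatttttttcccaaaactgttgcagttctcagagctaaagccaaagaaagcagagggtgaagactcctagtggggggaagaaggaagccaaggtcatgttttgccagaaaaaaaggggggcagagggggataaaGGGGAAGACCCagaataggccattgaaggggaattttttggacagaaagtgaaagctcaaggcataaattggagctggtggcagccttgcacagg
Ccl21: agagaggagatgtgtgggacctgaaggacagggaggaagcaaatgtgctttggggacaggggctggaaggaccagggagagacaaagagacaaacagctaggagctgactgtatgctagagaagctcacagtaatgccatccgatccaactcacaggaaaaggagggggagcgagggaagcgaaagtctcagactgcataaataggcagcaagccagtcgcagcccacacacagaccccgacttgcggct

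Counting back from the start, Ccl7 holds TATAAA at bases 34 to 29, an NF-kB-like match, GGAAGATCCC, at bases 59 to 50 and an AP-1-like match at bases 73 to 67. Ccl6 holds TATAAA at bases 32 to 27 and the NF-kB-like match GGGCACTTCC at bases 56 to 47. Ccl19 has overlapping NF-kB-like matches from base 95 to base 85 and no TATAAA, and the Ccl21 window holds none of the 3 patterns. The window of Ccl20, not shown, has overlapping NF-kB-like matches from base 91 to base 80 and another from base 205 to base 196. It holds neither other pattern, and Ccl20 had at most 2 fragments per library. Of 33469 rat windows of the same length, 12.9% hold TATAAA, 42.3% hold the NF-kB-like pattern and 6.34% the AP-1-like one, so the NF-kB-like match is a common one. A match describes letters in the window only.

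Some libraries stood apart. By the totals recovered from the FPKM steps they held 24304435 to 30283293 fragments each. Haemoglobin genes took 16.4% to 34.1% of the fragments after FeCl3, 1.30% to 1.63% in saline replicates 1 to 3 and 16.5% in saline replicate 4. Saline replicate 1 had a summed FPKM of 5.95 over 4 blood endothelium markers, against 73.9 to 169 in the other 7 libraries, and 5 of 11 T and NK cell markers at 0. FeCl3 replicate 4 had a summed FPKM of 492 over those 11 T and NK cell markers, where the other 7 libraries held 0.417 to 84.4. Smooth muscle markers, which define the aortic media, were abundant in every library, with a summed FPKM of 3664 to 25238 over 4 genes.

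Of the 10 ligands, 9 reached 1 FPKM in 4 or more libraries and were tested with limma, and 0 passed after Benjamini-Hochberg adjustment (threshold 0.05); 0% of the 11921 tested genes were called, and the smallest adjusted p among them was 0.245. Values were higher on average after FeCl3 for 8 of the 9, Ccl19 being the exception, against 29.8% of all tested genes with a positive fold change. At an unadjusted p under 0.05 there were 5 (Ccl2, Ccl7, Ccl6, Ccl3 and Ccl5), all higher after FeCl3, a direction and threshold that 4.42% of tested genes reached. For Ccl2 and Ccl3 all 4 FeCl3 libraries lay above all 4 saline libraries, as for 1.06% of tested genes, and no member lay wholly lower after FeCl3, as 8.75% of tested genes did. With FPKM rescaled to TPM both Ccl2 and Ccl3 overlapped and 0 members were without overlap, and with median-of-ratios scaling 3 were. The median log2 fold change of the 9 was 1.99 and that of all tested genes -0.25. These counts cover only genes that passed the filter, and Ccl3 passed it with all 4 FeCl3 libraries but 1 saline library. Fold changes were computed on log2(FPKM + 1), so those of low genes are understated. In whole tissue, fewer cells of a type and less RNA per cell cannot be told apart.

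**Figure D1:**
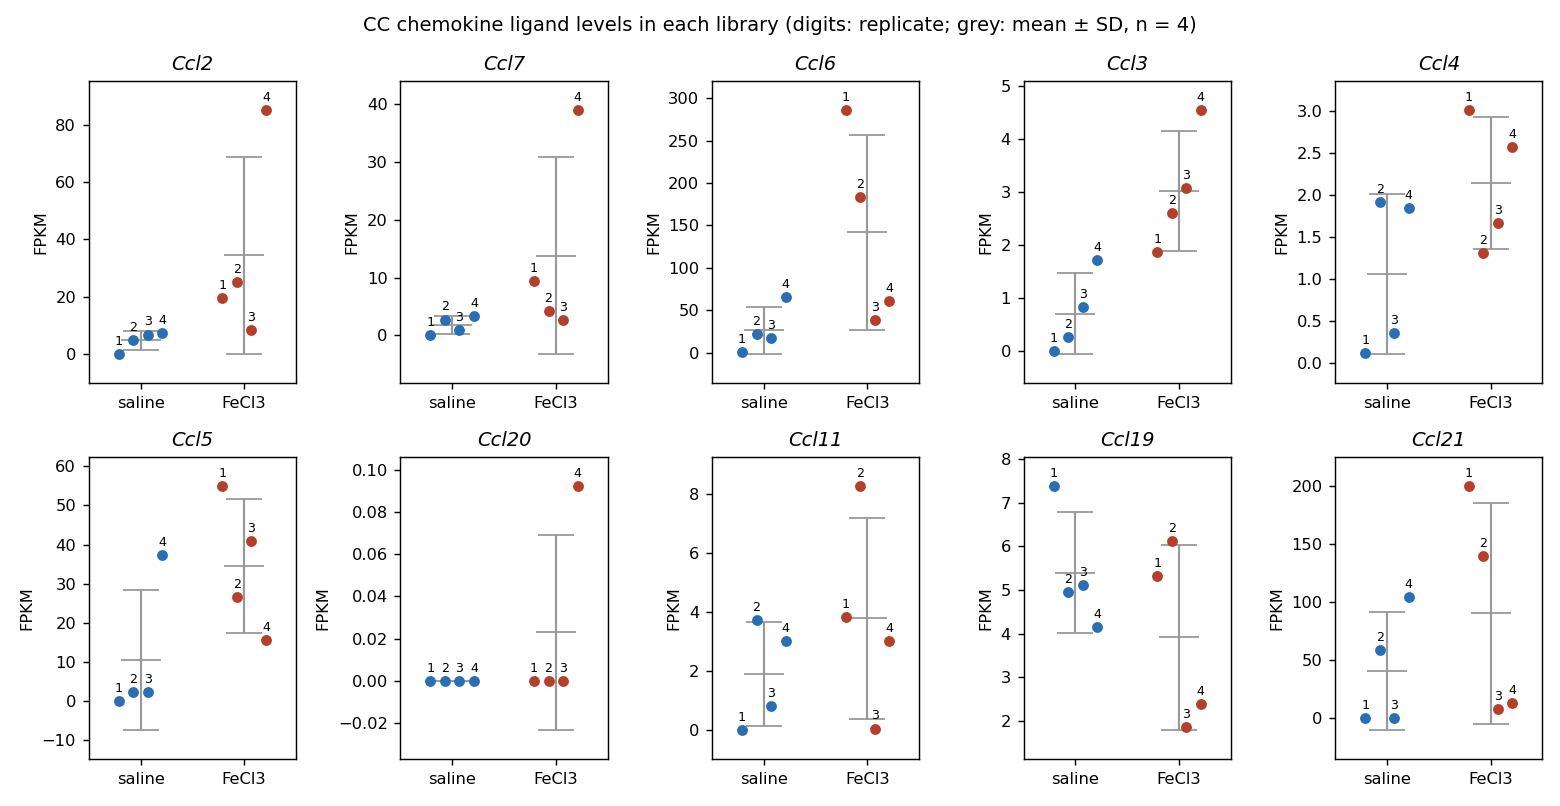
FPKM of each of the 10 CC ligands (vertical axes, linear, a separate scale per gene) in 4 saline (blue) and 4 FeCl3 (red) libraries, with the replicate number beside each point and the mean ± SD (n = 4) in grey. The groups do not overlap for Ccl2 and Ccl3, FeCl3 replicate 4 is highest for Ccl2 and Ccl7, and Ccl20 is above 0 only in that library.

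Ccl2, the main attractant of CCR2-bearing monocytes, measured 19.6, 25.0, 8.26 and 85.1 FPKM in FeCl3 replicates 1 to 4 and 0.0423, 4.91, 6.83 and 7.29 in saline replicates 1 to 4. Every FeCl3 library was above every saline library, though FeCl3 replicate 3 exceeded saline replicate 4 by little, and FeCl3 replicate 4 was 3.40 times the next highest. The log2 fold change was 2.51 ± 0.82 SE (limma adjusted p = 0.251, unadjusted p = 0.0142). Omitting 1 library at a time gave 1.81 (saline replicate 1) to 3.00 (FeCl3 replicate 3), with limma adjusted p from 0.191 to 0.534. Saline replicate 1 held 1 fragment of Ccl2, and the FeCl3 libraries held 166 to 1760. The ratio of Ccl2 to the summed FPKM of 11 monocyte and macrophage markers was 0.276 in FeCl3 replicate 4, 0.0261 to 0.0388 in the other FeCl3 libraries and 0.00427 to 0.127 after saline. Relative to this sum, mostly Lyz2 after FeCl3, FeCl3 replicate 4 was the highest library, while the other FeCl3 libraries lay within the saline range.

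Ccl7, which shares CCR2 and is encoded next to Ccl2, measured 9.40, 4.16, 2.69 and 38.9 FPKM after FeCl3 and 0, 2.75, 0.908 and 3.43 after saline. FeCl3 replicate 4 was again the highest, 4.14 times the next, and the groups overlapped because FeCl3 replicate 3 lay below saline replicates 2 and 4. The log2 fold change was 1.99 ± 0.77 SE (limma adjusted p = 0.271), and 1.30 without FeCl3 replicate 4 (limma adjusted p = 0.323). FPKM of Ccl2 exceeded that of Ccl7 in all 8 libraries. Where Ccl7 was above 0, the ratio of Ccl2 to Ccl7 was 2.08 to 6.01 after FeCl3 and 1.78 to 7.52 after saline, overlapping ranges.

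Ccl6, a myeloid chemokine that signals through CCR1, was the most abundant monocyte attractant in 7 of the 8 libraries. It measured 286, 183, 39.0 and 60.8 FPKM after FeCl3 and 0.854, 21.6, 17.2 and 66.0 after saline. FeCl3 replicates 1 and 2 were highest, not replicate 4, and saline replicate 4 lay above FeCl3 replicates 3 and 4. The log2 fold change was 2.83 ± 1.07 SE (limma adjusted p = 0.265). It was 1.82 without saline replicate 1, 3.55 without saline replicate 4 and 0.91 when haemoglobin entered the fit as a covariate, and none of these passed (limma adjusted p of 0.279, 0.159 and 1.00). Here and below, that covariate overlaps with the groups: of the controls, only saline replicate 4 (16.5%) lay in the FeCl3 range of 16.4% to 34.1%. The covariate fit therefore cannot reliably tell treatment from haemoglobin share. Monocyte and macrophage markers moved beside Ccl6: their summed FPKM was 213 to 752 after FeCl3, 9.91 to 98.2 in saline replicates 1 to 3 and 506 in saline replicate 4. Most of the sum was Lyz2 after FeCl3 (564, 570, 191 and 247 FPKM) and in saline replicate 4 (412 FPKM). The ratio of Ccl6 to that sum was 0.183 to 0.380 after FeCl3 and 0.0862 to 0.320 after saline, so that the groups overlapped. Neutrophil markers moved in the same way. The summed FPKM of 5 of them was 58.6 to 126 after FeCl3, 0.338 to 15.4 in saline replicates 1 to 3 and 93.8 in saline replicate 4. The part of either cell type in the Ccl2, Ccl7 and Ccl6 values was not tested.

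Ccl3 and Ccl4, neighbouring genes whose products attract monocytes, T cells and NK cells, were low. Ccl3 measured 1.87, 2.62, 3.09 and 4.55 FPKM after FeCl3 and 0, 0.273, 0.839 and 1.73 after saline, with no overlap between the groups. Its log2 fold change was 1.30 ± 0.36 SE, the smallest unadjusted limma p of the family (0.00550), with an adjusted p of 0.245. With a library left out the fold change stayed between 1.08 and 1.56 (limma adjusted p from 0.0736 without saline replicate 4 to 0.534). These values rest on 37 to 91 fragments after FeCl3 and 0 to 33 after saline. Ccl4 measured 3.00, 1.31, 1.67 and 2.57 FPKM after FeCl3 and 0.118, 1.92, 0.358 and 1.84 after saline, where saline replicates 2 and 4 lay within the FeCl3 range. Its log2 fold change was 0.70 with a 95% interval of -0.15 to 1.56 (limma adjusted p = 0.365), from 1 to 22 fragments per library. When haemoglobin was a covariate the fold changes were 0.47 for Ccl3 and 0.10 for Ccl4.

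Ccl5 (RANTES), an attractant of T cells and NK cells, had 1 control far above the other 3. It measured 55.0, 26.6, 40.9 and 15.6 FPKM after FeCl3 and 0.116, 2.46, 2.46 and 37.3 after saline. All 4 FeCl3 libraries were above saline replicates 1 to 3, and saline replicate 4 was above FeCl3 replicates 2 and 4. The log2 fold change was 2.76 ± 0.96 SE (limma adjusted p = 0.258). Without saline replicate 4 it was 3.76 and passed (limma adjusted p = 0.0243), in a fit that called 1.26% of tested genes higher and 0.0839% lower. That library had the highest Ccl5 of the controls, so leaving it out favours the call. Over all alternatives the limma adjusted p ran from 0.0243 to 1.00. With saline replicates 1 and 4 both left out the fold change was 3.22 (limma adjusted p = 0.0549), and with haemoglobin as a covariate it was -0.67.

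Platelet and T and NK cell markers were compared with Ccl5 library by library. The summed FPKM of 4 platelet markers was 960 to 2497 after FeCl3, 19.1 to 97.3 in saline replicates 1 to 3 and 1641 in saline replicate 4, so the controls split as for Ccl5. Saline replicate 4 also led the controls for T and NK cell (58.0), monocyte and macrophage (506), neutrophil (93.8), B cell (56.1) and erythroid (285126) markers. In saline replicates 1 to 3 these reached at most 10.2, 98.2, 15.4, 6.53 and 28304 FPKM, so the split was not particular to platelets. The ratio of Ccl5 to the summed T and NK cell markers was 0.511 to 0.668 in FeCl3 replicates 1 to 3 and 0.241 to 0.643 after saline, but 0.0318 in FeCl3 replicate 4. The library richest in T and NK cell markers thus had the lowest Ccl5 of its group. The part of any of these cell types in the Ccl5 values was not tested.

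Ccl20, the ligand of CCR6 on memory lymphocytes, was the only member below the filter. It was listed at 0.0923 FPKM in FeCl3 replicate 4, which corresponds to 2 fragments, and at 0 in the other 7 libraries. A count of 0 allows up to 0.121 to 0.151 FPKM (3 fragments) in those libraries, so a difference was not detectable at this depth. The exact two-sided permutation test (p = 1, n = 4 each) could not have shown one. With a single library above 0, every split gives a difference of the same size.

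Ccl11 (eotaxin), an eosinophil attractant acting on CCR3, measured 3.82, 8.29, 0.0397 and 3.01 FPKM after FeCl3 and 0, 3.74, 0.817 and 3.03 after saline. FeCl3 replicate 3, with 1 fragment, lay below 3 of the 4 controls, and the groups overlapped. Its log2 fold change was 0.61 with a 95% interval of -1.03 to 2.25 (limma adjusted p = 0.677), and leaving out FeCl3 replicate 2 gave 0.16, FeCl3 replicate 3 gave 1.22. FeCl3 replicate 4, the peak for its chromosomal neighbours Ccl2 and Ccl7, held less Ccl11 than FeCl3 replicates 1 and 2. Of 3 eosinophil markers, the granule genes Epx and Prg2 were under 1 FPKM in every library. With Siglec5, the third, the summed FPKM was 1.33 to 6.46 after FeCl3 and 0.0507 to 2.24 after saline. The part of these cells in the Ccl11 values was not tested.

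Ccl21, a homeostatic ligand of CCR7 made by lymphatic endothelium, had the widest 95% interval of the family. It measured 200 FPKM in FeCl3 replicate 1, 140 in replicate 2, 7.73 in replicate 3 and 13.5 in replicate 4. In saline replicates 2 and 4 it measured 59.1 and 104, while saline replicates 1 and 3 held 0 fragments, which allows up to 0.118 and 0.119 FPKM. High and low libraries occurred in both groups. Its log2 fold change was 2.29 with a 95% interval of -1.79 to 6.37 (limma adjusted p = 0.517). It was 1.24 if either saline replicate 1 or 3 was omitted, 3.47 if saline replicate 4 was, and -0.81 with haemoglobin as a covariate. A pseudocount of 0.01 gave 5.55 and voom on recovered fragments 5.49, neither past the test (limma adjusted p of 0.407 and 0.433).

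Markers of lymphatic endothelium, of fat and of fibroblasts were low in the libraries with little Ccl21. The summed FPKM of 5 lymphatic endothelium markers was 1.45, 6.33 and 4.71 in saline replicates 1 and 3 and FeCl3 replicate 3, and 19.1 to 39.1 in the other 5 libraries. The defining lymphatic factor Prox1 was under 1 FPKM in every library. The summed FPKM of 3 adipocyte markers was 0.322, 58.9 and 79.4 in the same 3 libraries and 510 to 2113 in the others. That of 5 fibroblast markers was 442, 542 and 549 in those 3 libraries and 891 to 2747 in the others. FeCl3 replicate 4, with 514 FPKM of adipocyte markers and 19.1 of lymphatic markers, nevertheless had only 13.5 FPKM of Ccl21. The part of any of these tissues in the Ccl21 values was not tested.

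Ccl19, the other CCR7 ligand, measured 5.33, 6.13, 1.85 and 2.37 FPKM after FeCl3 and 7.39, 4.95, 5.12 and 4.14 after saline, and FeCl3 replicates 3 and 4 lay below all controls. Its log2 fold change of -0.47 had a 95% interval of -1.25 to 0.32 (limma adjusted p = 0.494) and lay -0.22 from the median of all tested genes. It was -1.14 with FPKM rescaled to TPM (limma adjusted p = 0.0659), against a median over all genes of -0.90 on that scale, -0.24 without FeCl3 replicate 3 and 0.010 with haemoglobin as a covariate. It was the only tested member not lowest in saline replicate 1: there it reached its highest value, with 160 fragments, while Ccl21, Ccl11, Ccl7 and Ccl3 were at 0. The ratio of Ccl21 to Ccl19 was 4.19 to 37.5 after FeCl3 and 0 to 25.1 after saline.

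**Figure D2:**
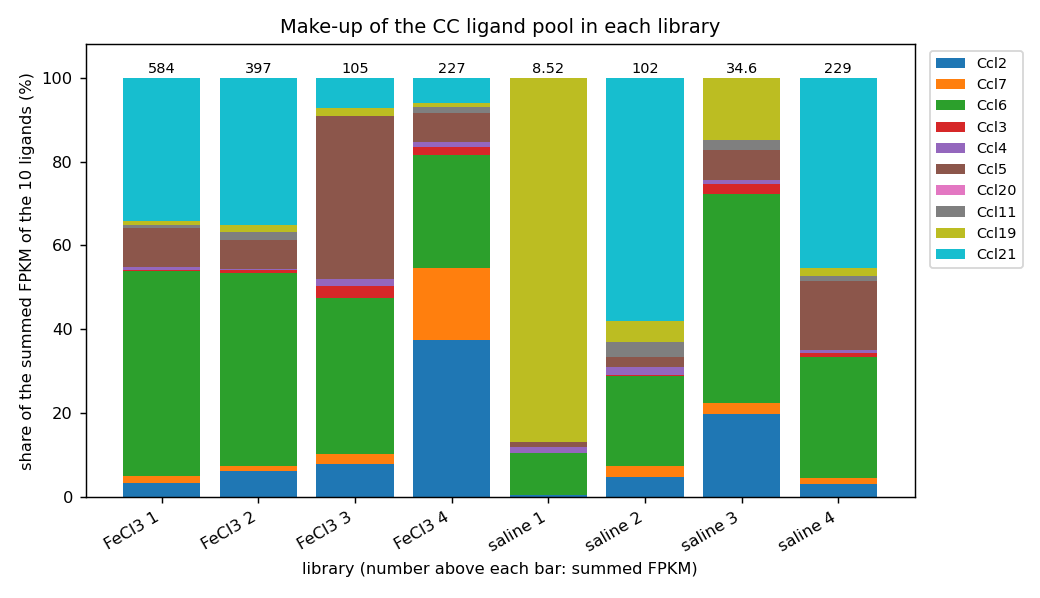
Share of each ligand (vertical axis, percent) in the summed FPKM of the 10 CC ligands for each library, with that sum above each bar. Ccl6 makes up 26.8% to 49.0% after FeCl3, Ccl2 reaches 37.6% in FeCl3 replicate 4, and Ccl19 makes up 86.7% of the small pool of saline replicate 1.

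The summed level of the 10 ligands was 584, 397, 105 and 227 FPKM after FeCl3 and 8.52, 102, 34.6 and 229 after saline, so saline replicates 2 and 4 came close to or above FeCl3 replicate 3. The leading ligand of this pool differed between libraries of the same group. Ccl6 and Ccl21 together led in FeCl3 replicates 1 and 2, with shares of 49.0% and 34.2% in the first and 46.2% and 35.2% in the second. Ccl5 was the largest share, 38.9%, in FeCl3 replicate 3, and Ccl2 the largest, 37.6%, in FeCl3 replicate 4, where Ccl7 added 17.2%. Among the controls Ccl21 led in saline replicates 2 and 4 (58.1% and 45.5%), Ccl6 in saline replicate 3 (49.8%) and Ccl19 in saline replicate 1 (86.7%). These shares depend on gene length, recovered as 348 bases for Ccl6 and 838 for Ccl21. In FeCl3 replicates 1 and 2 Ccl21 held 4394 and 3209 fragments and Ccl6 2610 and 1748, while Ccl6 held more fragments in FeCl3 replicates 3 and 4.

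**Figure D3:**
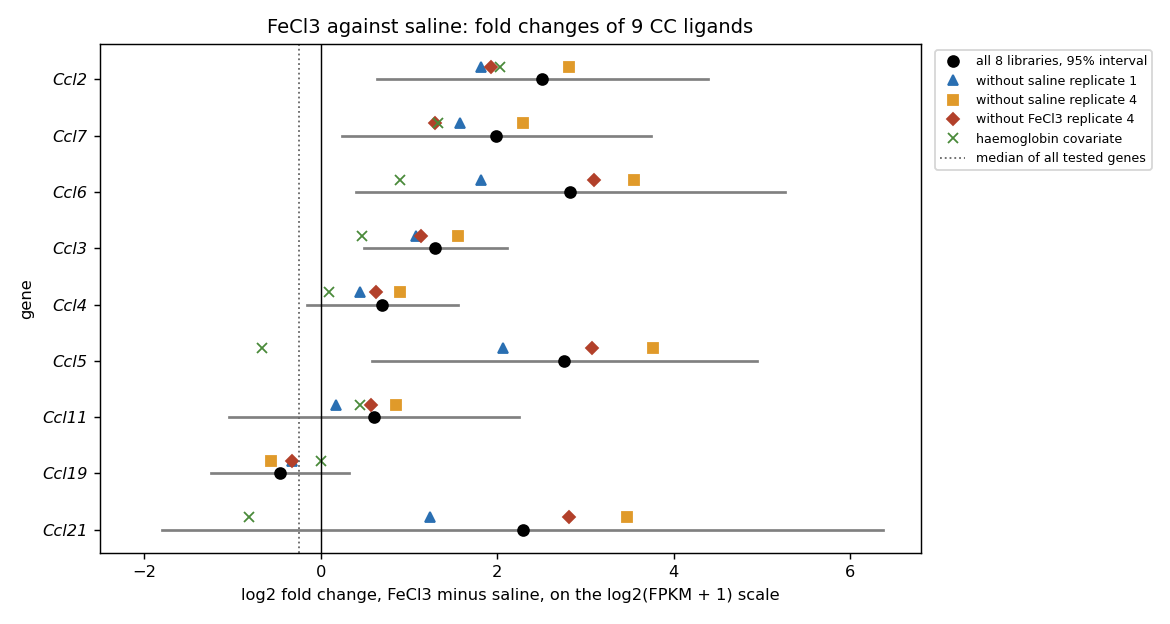
Log2 fold change, FeCl3 minus saline (horizontal axis, log2(FPKM + 1) scale), of the 9 tested CC ligands with its 95% interval (black point and grey line, 4 against 4), and the same without saline replicate 1, without saline replicate 4, without FeCl3 replicate 4 or with haemoglobin as a covariate; the dotted line is the median of all tested genes. Intervals of Ccl2, Ccl7, Ccl6, Ccl3 and Ccl5 lie above 0 before adjustment, those of Ccl4, Ccl11, Ccl19 and Ccl21 include 0, and the covariate, which overlaps with the groups, moves Ccl5 and Ccl21 below 0.

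The order of fold changes was Ccl6, Ccl5, Ccl2, Ccl21, Ccl7, Ccl3, Ccl4, Ccl11 and Ccl19, and each value after the first lay within the 95% interval of the gene before it. By level, Ccl6 (142 ± 115 FPKM, SD, n = 4) and Ccl21 (90.2 ± 95.1) came first after FeCl3, followed by Ccl5 (34.5 ± 17.1), Ccl2, Ccl7 (13.8 ± 17.0), Ccl19 (3.92 ± 2.13), Ccl11 (3.79 ± 3.41), Ccl3 (3.03 ± 1.13) and Ccl4 (2.14 ± 0.784). After saline Ccl21 (40.7 ± 50.5) and Ccl6 (26.4 ± 27.8) were again the highest, and Ccl19 (5.40 ± 1.39) exceeded Ccl2 on average. In both orders neighbouring means differed by less than the larger of their SDs.

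Of 13 receptor genes, all were in the table, 6 passed the filter and 0 passed the test, with 5 of the 6 higher on average after FeCl3 (median log2 fold change 1.14; all tested genes -0.25). Ccr7, the receptor of Ccl19 and Ccl21 on naive lymphocytes and dendritic cells, measured 16.7, 6.28, 14.6 and 66.2 FPKM after FeCl3 and 0, 1.63, 0.137 and 9.01 after saline. Its level peaked in FeCl3 replicate 4, where Ccl21 was low, and the groups overlapped through saline replicate 4. For Ccr7 the log2 fold change was 3.03 ± 0.86 SE (limma adjusted p = 0.245). With FPKM rescaled to TPM it was 2.93 and passed (limma adjusted p = 0.0445), in a fit that called 0.545% of tested genes higher and 27% lower. With haemoglobin as a covariate it was 0.76 and did not pass, and over all alternatives the limma adjusted p ran from 0.0445 to 1.00.

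The receptors of inflammatory ligands named here, Ccr1, Ccr2, Ccr3 and Ccr6, reached at most 9.10 FPKM. Ccr2, the receptor of Ccl2 and Ccl7, measured 3.33, 3.68, 1.27 and 2.15 FPKM after FeCl3 and 0, 0.649, 0.379 and 2.78 after saline, so its order differed from that of Ccl2, with no peak in FeCl3 replicate 4. Ccr1, a receptor of Ccl3 and Ccl6, measured 7.34, 9.10, 0.986 and 3.85 FPKM after FeCl3 and 0, 1.07, 0.468 and 4.12 after saline. It differed by 1.43 ± 0.63 SE on the log2 scale (limma adjusted p = 0.300), and saline replicates 2 and 4 lay within its FeCl3 range. Ccr2 differed by 1.02 ± 0.43 SE (limma adjusted p = 0.289). All 4 of its FeCl3 libraries lay above saline replicates 1 to 3, but saline replicate 4 lay above FeCl3 replicates 3 and 4. Ccr2 passed the filter with all 4 FeCl3 libraries but 1 saline library, which bears on the count of receptors higher after FeCl3. With haemoglobin as a covariate, which overlaps with the groups, Ccr1 differed by 0.34 and Ccr2 by -0.048. Ccr3 and Ccr6 were under 1 FPKM in every library. Of the atypical receptors, which bind chemokines without driving migration, Ackr1 of venular endothelium and red cells gave -0.50 ± 0.87 SE (0.038 without saline replicate 3), and Ackr4, a scavenger of Ccl19 and Ccl21, gave 1.25 ± 0.84 SE on the log2 scale (limma adjusted p of 0.782 and 0.458). Without saline replicate 1 these values were -1.22 for Ackr1 and 0.38 for Ackr4. Ackr2, a scavenger of inflammatory CC ligands, was under 1 FPKM throughout.

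**Figure D4:**
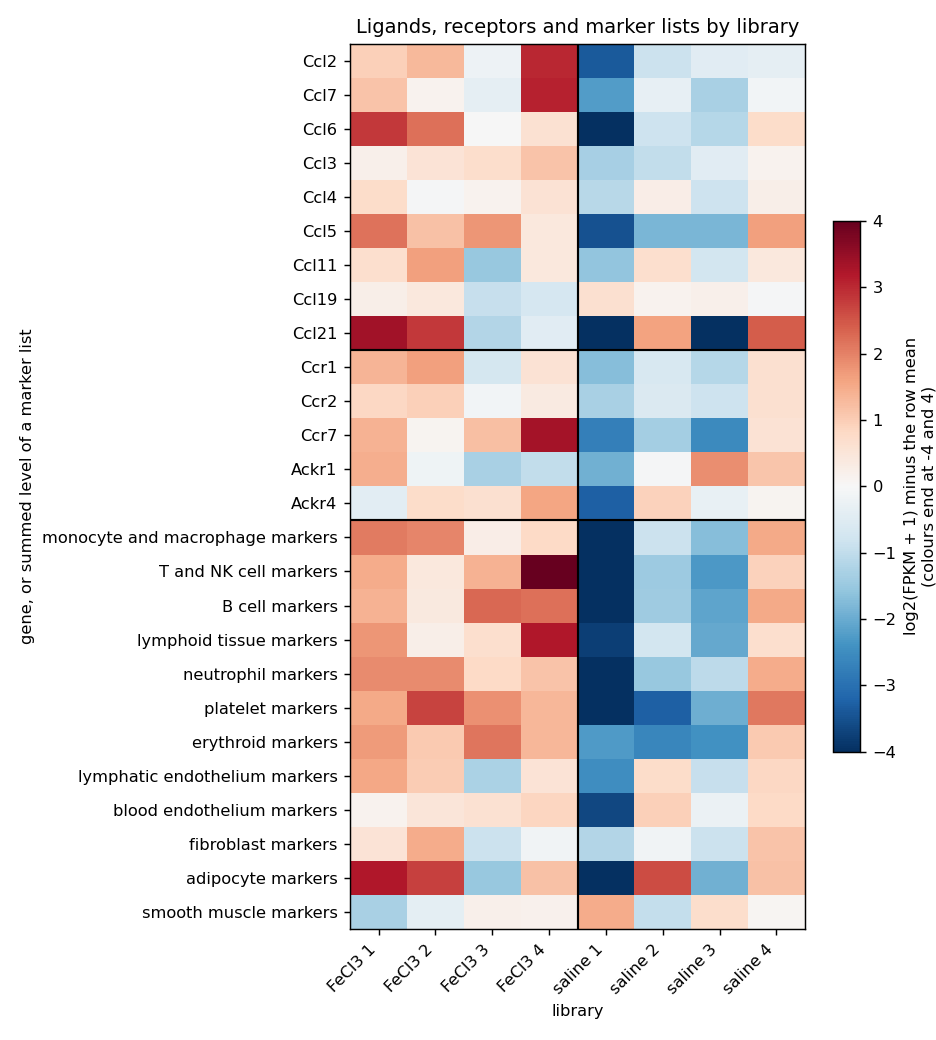
Log2(FPKM + 1) minus the row mean over 8 libraries (colour, red above and blue below) for 9 ligands, 5 receptors and the summed levels of 12 marker lists, with FeCl3 libraries left and saline libraries right of the line. Saline replicate 1 is low in all ligand rows except Ccl19, saline replicate 4 is high for Ccl5 and Ccl21, and FeCl3 replicate 4 is highest for Ccl2, Ccl7, Ccr7 and the T and NK cell markers.

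Of 8 inducing cytokines found in the table only Il1b and Ltb passed the filter, both higher on average after FeCl3 and neither past the test. The fold change (log2) of Ltb, a lymphotoxin that sustains lymphoid stroma, was 2.41 ± 0.72 SE, and that of Il1b 1.88 (limma adjusted p of 0.245 and 0.258). All 8 NF-kB genes were tested; 2 were higher and 6 lower on average after FeCl3 and 0 passed, from Nfkbiz at 0.24 to Rela at -0.59 (limma adjusted p of 0.740 and 0.280), with a list median of -0.14 against -0.25 for all tested genes. Of 5 tested enzymes that trim or release chemokines 0 passed, from Dpp4, which clips the N terminus of several ligands, at 0.70 to Plat, tissue plasminogen activator, at -0.91 (limma adjusted p of 0.495 and 0.267). Of 6 tested genes of receptor signalling 0 passed. Rac2, a GTPase of blood cells, had the largest fold change there, 3.19, and Gnai2, a G protein subunit of many cell types, the smallest, -0.28 (limma adjusted p of 0.245 and 0.562).

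Likeness of pattern was measured as the mean absolute difference over the 8 libraries between log2(FPKM + 1) values, each gene centred on its own mean. Among members the closest pairs were Ccl3 with Ccl4 (0.53), Ccl2 with Ccl7 (0.54) and Ccl4 with Ccl11 (0.59), and the most distant was Ccl3 with Ccl21 (2.58). The measure favours genes of small range, such as Ccl3 and Ccl4. Outside the family, Ccl2 was closest to Psmb8 (0.54), an immunoproteasome subunit, and Rgs1 (0.57), and Ccl7 to LOC120102367 (0.26), Gimap1 (0.37) and Lat (0.37), the latter an adaptor of T cell receptor signalling. Ccl6 was closest to Lyz2 (0.50), Tyrobp (0.52) and S100a8 (0.56), genes of myeloid cells. Lyz2 is also the main part of the monocyte and macrophage marker sum after FeCl3, so the 2 comparisons are not separate. S100a8 is likewise part of the neutrophil marker sum. Ccl5 was closest to Fcer1g (0.38), Hba-a3 (0.42), an alpha globin, and F13a1 (0.43), factor XIII of platelets and macrophages. Ccl3 was closest to Cd200r1 (0.17), Msr1 (0.17) and Dapp1 (0.20), and Ccl4 to RT1-CE5 (0.11), Fli1 (0.14) and Orai1 (0.15). Ccl11 was closest to Bst2 (0.25), Srpx (0.27) and Ghr (0.29), Ccl21 to C7 (0.70), Ces1d (0.80) and Dpt (0.85), and Ccl19 to Dcun1d3 (0.10), Syde1 (0.16) and Wdfy1 (0.16). These genes were chosen as the nearest of 11921 over only 8 libraries, which share depth and tissue make-up, and no test was made.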

How the data were processed

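PolyA RNA of 8 abdominal aortas was sequenced after mirVana isolation and VAHTS Universal V6 library preparation, per the labels' protocols. The authors deposited 1 FPKM value per gene and library; fastp, HISAT2, HTSeq and the build mRatBN7.2 are named in the submitters' processing notes, and versions, annotation and gene lengths are not given in the sources used here. The labels place all samples in 1 batch. Columns were matched to samples by title (0 value columns unmapped), and groups came from the treatment label. Library totals (24304435 to 30283293) and whole fragments per gene were recovered from the FPKM steps for 100% of 18090 genes (tolerance 0.0005 plus 3e-07 per fragment); fragments are the smallest whole numbers the values allow, and 2 genes were doubled to reach the totals. Intervals cover the spread between samples, and a count of 0 is taken to allow 3 fragments, for counting error only.

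The 11921 genes reaching 1 FPKM in 4 or more libraries were fitted on log2(FPKM + 1) with limma 3.58.1 (trend) in R 4.3.3; two-sided p-values for FeCl3 minus saline were adjusted by Benjamini-Hochberg over all of them, with a threshold of 0.05. The script was tested on simulated data. Ccl20 was given an exact permutation test. Alternatives were pseudocounts of 0.1 and 0.01, other filters, scaling to TPM, median-of-ratios scaling, library totals without haemoglobin genes, voom on the recovered fragments, limma with robust variances or with no trend, haemoglobin as a covariate, each library left out, and saline replicates 1 and 4 left out. The members, gene lists and alternatives were chosen with earlier results of these data known. Named genes are the members, 8 receptors, the largest and smallest fold change of each other list, and the 3 genes nearest in pattern to each tested member. Of the 13 receptors counted, the other 5 are given by count only, and 1 further gene of the rule is not reported here. Marker genes named beside results come from the listed markers. Promoter sequences are RefSeq's (GRCr8). Figures used matplotlib 3.10.9.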

Additional observations from a re-analysis of the deposited data

Results flagged for a closer look

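In 4 groups of 4 libraries, 1 library lay farther from the rest than Dixon's 95% critical value allows, among 36 groups examined. The rule was applied to FPKM, not to log values. Its rate of about 1 flag in 20 by chance holds for normally distributed values, which FPKM need not be. The 36 groups also share the same 8 libraries, so the flags are not independent. In 3 of these the library was saline replicate 4, higher than the other controls: Ccl5 at 37.3 FPKM, Ccr3 at 0.238 and Ccr6 at 0.551. The remaining one was Ccl20 in FeCl3 replicate 4, at 0.0923 FPKM, where the other libraries of the group were at 0. For Ccl20 and Ccr3, with the rest of the group at 0, any value above 0 would be flagged. Saline replicate 4 was also the control with the highest haemoglobin share, 16.5%, and platelet marker level, 1641 FPKM; their part in these values was not tested.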

How the results depend on the processing

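Across 20 alternative settings the log2 fold changes of Ccl2, Ccl7, Ccl6, Ccl3, Ccl4 and Ccl11 stayed positive, from 1.81 to 3.74 for Ccl2, 1.30 to 3.88 for Ccl7, 0.91 to 3.55 for Ccl6, 0.47 to 3.51 for Ccl3, 0.10 to 1.67 for Ccl4 and 0.16 to 1.49 for Ccl11, and none of these 6 passed in limma. The ranges were -0.67 to 3.83 for Ccl5, -1.14 to 0.010 for Ccl19, -0.81 to 5.55 for Ccl21, 0.34 to 3.62 for Ccr1, -0.048 to 3.66 for Ccr2, 0.76 to 5.61 for Ccr7 and 0.31 to 1.77 for Ackr4, of which Ccl5 and Ccr7 each passed under 1 alternative. With haemoglobin as a covariate, which overlaps with the groups, the direction turned for Ccl5 (-0.67), Ccl21 (-0.81), Ccl19 (0.010) and Ccr2 (-0.048), and without saline replicate 3 for Ackr1 (0.038, where the lowest with a library left out was -1.22); the cause was not tested. With FPKM rescaled to TPM the median of all tested genes was -0.90, 3288 genes passed (65 higher, 3223 lower) and 0 members lay without overlap, against 2 as deposited and 3 with median-of-ratios scaling; no member passed. Median-of-ratios scaling put the median of all genes at -0.01 and kept the direction of every tested member. With a library left out the number of genes past the threshold ran from 0 to 160 and that of CC ligands from 0 to 1 (Ccl5), the highest of each without saline replicate 4; without saline replicates 1 and 4 it was 51 genes. No paired analysis was possible because the labels give no replicate numbers that pair the groups. Depth limits Ccl20, Ccl4 and Ccl3 most, with at most 2, 22 and 91 fragments per library.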

Other observations

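Of 10 further CC ligands listed, 6 were in the table and 2 passed the filter. Ccl24, an eosinophil attractant made by macrophages, measured 18.5, 10.6, 0.452 and 4.44 FPKM after FeCl3 and 0, 2.93, 0.137 and 2.11 after saline, with 3 of 4 FeCl3 libraries above all controls (log2 fold change 1.75 ± 0.81 SE, limma adjusted p = 0.314). Its low libraries, saline replicates 1 and 3 and FeCl3 replicate 3, were also those lowest in Ccl21. Ccl27, a skin-associated ligand encoded next to Ccl19, differed by -0.33 ± 0.24 SE on the log2 scale (limma adjusted p = 0.494) and, like Ccl19, was above 1 FPKM in saline replicate 1. Ccl17, a ligand of CCR4 on T cells, was below the filter yet reached 10.2 FPKM in FeCl3 replicate 2 and 2.27 in FeCl3 replicate 4, against at most 0.560 after saline. Ccl9, Ccl12 and Ccl22 stayed at or below 1.08 FPKM in every library. The ligands below the filter were named after their values were seen.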
